A study of Homo sapiens with 12 samples.

Results

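The genes described here are 35 genes of cholesterol synthesis, its control by the SREBP and LXR transcription factors, and neighbouring lipid enzymes, taken by symbol from tables of 78932 genes, of which 42745 carry a symbol. All 35 were found by symbol, and 30 had enough counts to be tested. THP-1 cells, an established human line started from a monocytic leukaemia, gave 4 groups of 3 libraries of messenger RNA. CEL cells received LPS, ATP, cyclosporin A (CsA), eltrombopag and luspatercept, and CE cells received LPS, ATP, cyclosporin A and eltrombopag. LPS cells received LPS and ATP alone, as the study's model of pyroptosis, an inflammatory cell death, and NC cells were the normal control. LPS, from the outer membrane of bacteria, signals through TLR4, and ATP outside the cell opens P2X7 channels. Cyclosporin A inhibits calcineurin, eltrombopag activates the thrombopoietin receptor and binds iron, and luspatercept is a soluble trap for activin-type ligands. The CEL, CE and LPS groups all carry LPS and ATP, so no drug was measured in unstimulated cells. No group received luspatercept without the other drugs. The deposited columns for CE cells are headed only as treated. They were taken as the drug-treated group left over, and every CE value rests on that match. Doses and times are not given in the labels used here, and nothing in them says that the 3 libraries of a group came from separate cultures. The p-values therefore measure only the spread between these libraries.

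Cells make cholesterol from acetyl-CoA through mevalonate, the isoprenoids, squalene and a chain of sterols. When sterols in the endoplasmic reticulum are low, SCAP carries SREBP proteins to the Golgi, where they are cut and released to switch on the synthesis genes, and INSIG proteins hold them back when sterols are plentiful. LXR receptors work the other way: they bind oxysterols and switch on genes that export cholesterol or lower its uptake, such as ABCA1, ABCG1 and MYLIP. In monocytes and macrophages these systems set the load of free and esterified cholesterol.

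Promoter windows from RefSeq (GRCh38.p14, 250 bases before to 50 after a gene's start) were at hand for 30 of the 35 genes, and 6 are shown because these genes carry the main changes below or the clearest motif. Capitals mark CCAAT boxes, or ATTGG where the box is on the other strand, in MSMO1 (chr4:165327419-165327718, plus strand), HMGCS1 (chr5:43313363-43313662, minus strand) and FDPS (chr1:155308616-155308915, plus strand). In SC5D (chr11:121292521-121292820, plus strand) they mark a CCAAT box and the E-box CACGTG, and in INSIG1 (chr7:155297628-155297927, plus strand) a CCAAT box, an E-box and a match to TCANNCCAC, a relaxed form of the sterol regulatory element that SREBP binds. In ABCA1 (chr9:104928106-104928405, minus strand) they mark a match to GGTNA, any 5 bases and GGTNA again, a relaxed form of the direct repeat that LXR binds with RXR, read on the other strand, while its E-box is left in lower case.
MSMO1: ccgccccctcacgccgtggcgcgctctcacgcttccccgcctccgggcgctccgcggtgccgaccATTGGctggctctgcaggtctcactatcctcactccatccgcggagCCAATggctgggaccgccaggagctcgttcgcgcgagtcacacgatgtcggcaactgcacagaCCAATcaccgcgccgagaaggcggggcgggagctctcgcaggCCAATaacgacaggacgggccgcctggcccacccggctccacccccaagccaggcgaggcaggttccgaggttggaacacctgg
HMGCS1: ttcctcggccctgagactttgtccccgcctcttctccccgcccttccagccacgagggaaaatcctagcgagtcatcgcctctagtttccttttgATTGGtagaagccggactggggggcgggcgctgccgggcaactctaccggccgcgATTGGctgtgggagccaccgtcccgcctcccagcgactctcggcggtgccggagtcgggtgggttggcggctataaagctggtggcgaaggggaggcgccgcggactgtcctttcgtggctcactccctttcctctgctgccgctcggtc
SC5D: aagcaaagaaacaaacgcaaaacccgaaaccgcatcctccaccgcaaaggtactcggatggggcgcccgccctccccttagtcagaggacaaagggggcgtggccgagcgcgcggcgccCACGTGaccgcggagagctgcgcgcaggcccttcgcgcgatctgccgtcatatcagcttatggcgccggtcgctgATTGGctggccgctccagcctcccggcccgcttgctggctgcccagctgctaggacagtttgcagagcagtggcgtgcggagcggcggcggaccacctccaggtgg
INSIG1: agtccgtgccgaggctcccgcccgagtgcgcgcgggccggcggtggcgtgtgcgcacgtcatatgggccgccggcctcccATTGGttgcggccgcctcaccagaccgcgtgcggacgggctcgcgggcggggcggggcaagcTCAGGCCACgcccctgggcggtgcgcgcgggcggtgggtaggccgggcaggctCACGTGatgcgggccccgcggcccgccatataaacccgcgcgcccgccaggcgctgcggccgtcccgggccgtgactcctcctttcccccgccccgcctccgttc
FDPS: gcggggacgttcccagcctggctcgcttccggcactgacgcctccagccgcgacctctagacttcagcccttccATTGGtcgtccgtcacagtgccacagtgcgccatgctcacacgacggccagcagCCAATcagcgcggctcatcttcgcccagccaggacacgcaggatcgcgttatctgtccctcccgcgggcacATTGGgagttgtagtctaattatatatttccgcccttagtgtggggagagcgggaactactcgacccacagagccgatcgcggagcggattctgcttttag
ABCA1: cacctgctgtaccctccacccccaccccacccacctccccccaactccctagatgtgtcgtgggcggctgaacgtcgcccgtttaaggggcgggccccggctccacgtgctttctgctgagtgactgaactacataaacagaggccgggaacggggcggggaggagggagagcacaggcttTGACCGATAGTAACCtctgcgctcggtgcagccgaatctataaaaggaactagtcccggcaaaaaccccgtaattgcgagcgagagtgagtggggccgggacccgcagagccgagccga
Both strands were searched, and a gene counted where any of its windows held the letters. CCAAT was found in 21 of the 30 genes, which is 70.0% of them beside 39.72% of all 27305 genes with a window. The GC box GGGCGG was found in 29 genes (96.7%, beside 48.3%), and CACGTG in 5 genes, ABCA1, INSIG1, LSS, SC5D and SCAP (16.7%, beside 8.77%). TCANNCCAC was found in INSIG1, NR1H3 and SREBF2 (10.0%, beside 4.74%), and the LXR repeat in ABCA1 and HMGCS1 (6.7%, beside 0.78%). The 27305 genes were not filtered by gene type, while the 30 genes all encode proteins, so the shares come from unlike sets. The part of this in the differences was not tested. Matches to different motifs may overlap and were counted separately. A match describes the letters of a window and is not a binding site.

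Each library held 17737240 to 23183474 counts. Counts scaled to the library size after TMM adjustment are given as CPM, which compare 1 gene between libraries, and TPM, which also allow for transcript length, are used to compare genes. The THP-1 label was checked against 10 monocytic markers: 7 to 9 of them exceeded 1 CPM in each library, while MPO stayed under it throughout. Their summed level was 453 to 527 CPM in CEL cells, 503 to 780 CPM in CE cells, 792 to 876 CPM in LPS cells and 966 to 992 CPM in NC cells. From NC to LPS cells the lower sum followed LYZ, at 582 to 614 CPM in NC cells and 134 to 149 CPM in LPS cells. LYZ was at 26.1 to 29.4 CPM in CE cells and 19.4 to 21.8 CPM in CEL cells. FCGR1A was also lower there, at 32.9 to 40.3 CPM in CE cells and 19.4 to 24.4 CPM in CEL cells, against 190 to 199 CPM in LPS cells and 93.1 to 104 CPM in NC cells. CD14 had 5.83 to 7.43 CPM in CE cells, 2.25 to 3.06 CPM in CEL cells, 41.9 to 47.7 CPM in LPS cells and 0.639 to 1.12 CPM in NC cells. Of 9 tested monocytic markers, 5 rose and 2 fell in CEL against NC, where 34.0% of all genes were called higher and 33.0% lower. In CE against NC 5 rose and 2 fell (34.6% and 29.4% of all genes), and in LPS against NC 5 and 1 (22.4% and 23.5%). Against LPS, 2 rose and 3 fell in CEL (28.7% and 27.2%) and in CE (28.8% and 20.7%). In CEL against CE 0 rose and 4 fell (8.78% and 14.8%). The part of these shifts in the changes below was not tested. Of 8 markers of epithelium, fibroblasts, endothelium and liver, PECAM1, which monocytes also make, was high, and the other 7 summed to 0.098 to 1.45 CPM. Erythroid and megakaryocyte markers summed to at most 0.451 CPM, and lymphocyte markers, mostly NKG7, to 2.26 to 7.10 CPM. Exons of 14 of the genes, HMGCS1, MVK, IDI1, FDPS, FDFT1, LSS, CYP51A1, ACAT2, SREBF1, SREBF2, STARD4, NR1H3, FADS1 and FADS2, overlap a gene on the opposite strand in GENCODE release 29, whose GRCh38 coordinates are used for genes below. The strand setting of the counting is not given in the sources used here, so reads of those bases cannot be told apart.

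The most abundant transcripts encode enzymes that make HMG-CoA, farnesyl pyrophosphate, squalene and its epoxide, and the desaturase SCD. FDFT1, squalene synthase, led with a mean of 334 TPM over the 12 libraries, followed by HMGCS1 at 296, FDPS at 266, SQLE at 186 and SCD at 145 TPM. The SD over libraries within a group reached 62.7 TPM for FDPS in NC cells, so neighbours in this order do not all differ beyond their spread. At the other end, 11 genes averaged under 2 TPM. They were SREBF2, MVD, TM7SF2, MVK, NR1H2, SCAP, LSS, SREBF1, FASN, ABCG1 and CH25H, so both SREBP genes, their escort and several enzymes of the main path were barely recorded. The levels went with base composition. Of 14 genes whose longest transcript has a GC content over 55%, 9 averaged under 2 TPM and 3 (FDPS, PMVK and DHCR7) over 10 TPM, with a median of 1.22 TPM. Of the 21 genes up to 55%, 2 (ABCG1 and CH25H) averaged under 2 TPM and 18 over 10 TPM, with a median of 67.3 TPM. The part of GC content in these levels was not tested.

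**Figure D1:**
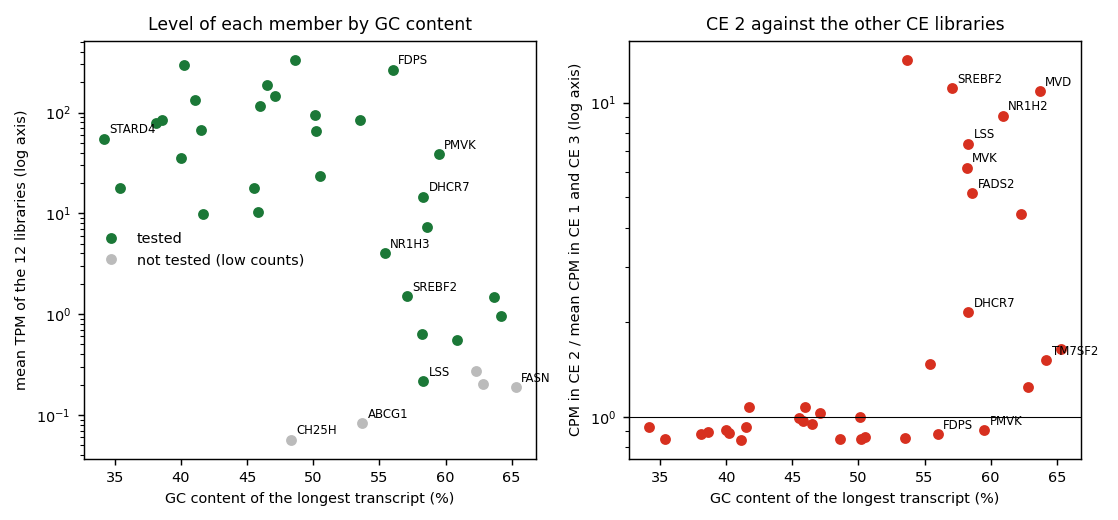
Left, mean TPM of each gene over the 12 libraries (log axis) against the GC content of its longest transcript. Right, the ratio of CPM in CE 2 to the mean of CE 1 and CE 3 (log axis) against the same GC content, where 8 of 14 genes over 55% GC lie above 2-fold and genes up to 55% GC lie near 1, apart from the unlabelled point of ABCG1 at 13.7-fold.

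One library stood apart on the same axis. CE 2 held the highest level of the 12 libraries for 8 of the 14 genes over 55% GC and for 0 of the other 21. The ratio of its CPM to the mean of CE 1 and CE 3 had a median of 3.29 over those 14 genes (0.882 to 11.1) and of 0.92 over 20 others with a ratio (0.847 to 13.7). Over the 339 tested genes above 60% GC with a mean log2 CPM over 1, CE 2 deviated from the mean of its group by a median log2 of 0.42, against -0.19 in CE 1. SREBF2 had 3.77, 1.60 and 1.40 CPM in CEL cells, 1.08, 15.4 and 1.69 CPM in CE cells, 2.65, 2.27 and 5.68 CPM in LPS cells and 1.99, 3.197 and 1.71 CPM in NC cells. CE 2 was the highest library, while CE 1 and CE 3 lay below all LPS and NC libraries. The CEL, LPS and NC libraries overlapped. With CE 2, SREBF2 was 0.77 ± 0.83 on the log2 scale in CE against LPS (adjusted p = 0.482), and without CE 2 it was -1.35 (adjusted p = 0.0456; 0.0456 to 1.00 over 17 alternatives), so no direction is given for it. MVK, MVD, LSS, NR1H2, FADS2, SCAP and DHCR7 were highest in CE 2 as well. In CE against LPS, MVK, MVD, LSS and NR1H2 had log2 changes of 0.65, 1.10, 1.08 and 0.88 with CE 2 and of -0.79, -0.97, -0.52 and -0.99 without it, and passed in neither case. Without CE 2, 16 of the tested genes rose and 5 fell in CE against LPS. Of all 14065 genes, 4235 were called higher and 3969 lower there, against 4057 and 2915 with all libraries. In CEL against CE without CE 2, 9 rose and 4 fell. Of all genes, 1680 were called higher and 2466 lower there, against 1235 and 2086 with all libraries.

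Addition of the 2 drugs to LPS and ATP went with higher transcripts of much of the pathway, among them HMGCS1, SQLE, MSMO1 and SC5D, and of the LXR targets ABCA1 and MYLIP, while FDPS, PMVK and NR1H3 were lower. The falls of FDPS and PMVK in CE against LPS did not pass with an offset for GC content, nor that of NR1H3 in limma on TPM. Calls that passed in every alternative fit numbered 9 of 21 in CE against LPS, 14 of 19 in CEL against LPS and 3 of 13 in LPS against NC. With luspatercept added, 6 of the 11 enzymes from squalene to cholesterol were called higher than in CE cells, beside 8.78% of all genes. Of the 13 calls of tested genes in CEL against CE, 0 passed in every alternative fit. IDI1, MSMO1, SC5D and INSIG1, 4 of the 13, passed in every alternative fit on counts. With edgeR's quasi-likelihood test, adjusted by Benjamini and Hochberg over 14065 genes at 0.05, 16 of the 30 tested genes rose and 5 fell in CE against LPS, where 28.8% of all genes were called higher and 20.7% lower. The median change was 0.65 over the 30 genes and 0.081 over all genes. In CEL against LPS, 15 rose and 4 fell, where 28.7% of all genes were called higher and 27.2% lower, and the medians were 0.41 and -0.032. Both comparisons use the LPS libraries. In LPS against NC, 4 rose and 9 fell, where 22.4% were called higher and 23.5% lower, and the medians were -0.01 and -0.014. In CEL against CE, which by the labels differ in luspatercept, 9 rose and 4 fell, where 8.78% were called higher and 14.8% lower, with medians of 0.03 and -0.087. Against NC cells, 14 rose and 8 fell in CEL (34.0% and 33.0% of all genes), and 11 rose and 7 fell in CE (34.6% and 29.4%). The 30 tested genes had to pass a filter on low counts, so these counts do not speak for SREBF1, SCAP, ABCG1, FASN and CH25H. In bulk RNA, fewer cells with a transcript and less transcript per cell cannot be told apart.

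**Figure D2:**
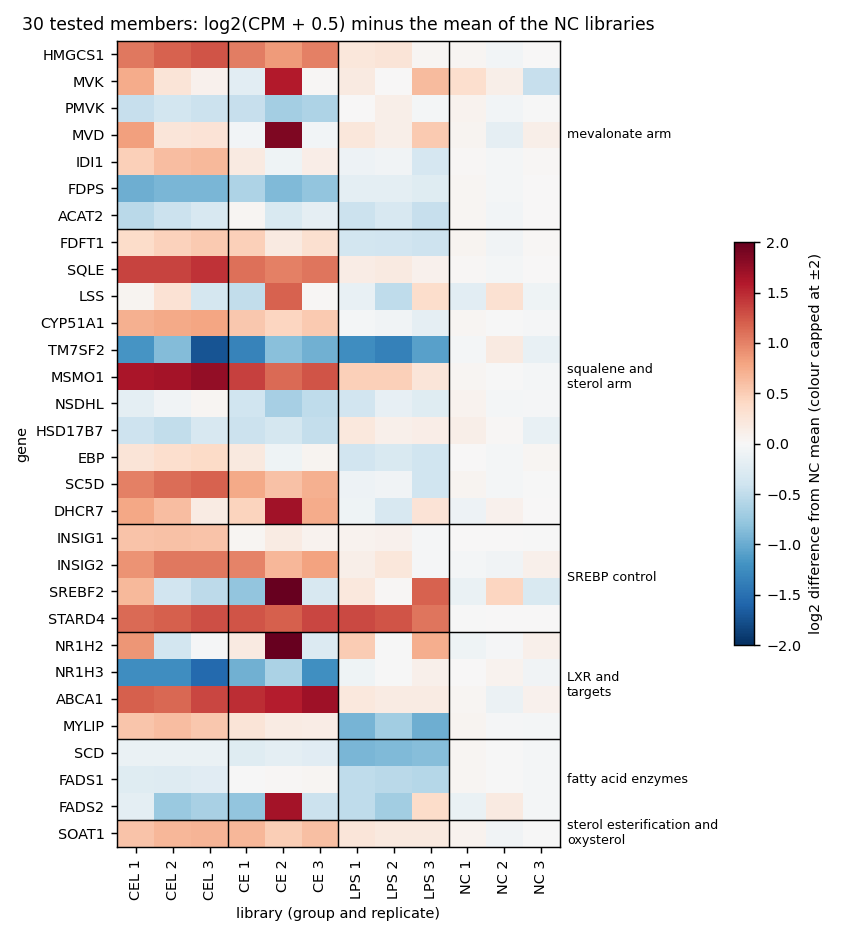
Difference of each library's log2(CPM + 0.5) from the mean of the NC libraries for the 30 tested genes, grouped by role, with colours capped at 2 in either direction. HMGCS1, SQLE, MSMO1, SC5D, ABCA1 and SOAT1 are red in all CEL and CE libraries, FDPS, PMVK and NR1H3 are blue there, and CE 2 shows isolated dark cells in GC-rich genes.

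In the mevalonate arm of 7 enzymes, HMGCS1, IDI1 and ACAT2 rose and PMVK and FDPS fell in CE against LPS, and the same held in CEL against LPS without ACAT2. HMGCS1, which makes HMG-CoA from acetyl-CoA units, had 846, 916 and 972 CPM in CEL cells, 828, 731 and 815 CPM in CE cells, 473, 485 and 416 CPM in LPS cells and 418, 391 and 409 CPM in NC cells. All CEL and CE libraries lay above all LPS and NC libraries, and all CEL libraries above all CE libraries. The log2 change was 0.99 ± 0.074 in CEL against LPS (adjusted p = 5.15e-07) and 0.79 ± 0.074 in CE against LPS (adjusted p = 4.59e-06). In CEL against CE it was 0.20 ± 0.073 and did not pass (adjusted p = 0.0689, 0.00444 to 0.673 over 17 alternatives). Without CEL 1 that adjusted p was 0.0425.

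FDPS (ENSG00000160752, chr1:155308748-155320666, plus strand) makes farnesyl pyrophosphate, from which the sterol, ubiquinone, dolichol and prenylation branches depart. It had 119, 124 and 124 CPM in CEL cells, 153, 127 and 135 CPM in CE cells, 205, 204 and 197 CPM in LPS cells and 239.6, 228 and 235 CPM in NC cells. NC was highest, then LPS, then CE and then CEL, and no neighbouring groups overlapped. The group means of HMGCS1 ran the other way, but its LPS and NC libraries overlapped. FDPS fell by 0.73 on the log2 scale in CEL against LPS (adjusted p = 9.48e-07) and by 0.55 in CE against LPS (adjusted p = 1.25e-05). With an offset for GC content, chosen after seeing the data, the adjusted p in CE against LPS was 0.0749 (4.77e-10 to 0.0749 over 17 alternatives), and in CEL against LPS it still passed. The smaller differences were less stable. LPS against NC gave -0.21 ± 0.058 (adjusted p = 0.0116, 0.0607 without NC 3, 0.00229 to 0.899 over 17 alternatives), and CEL against CE gave -0.18 ± 0.059 (adjusted p = 0.0468), which passed in 1 of 17 alternatives. With the replicate block the adjusted p in CEL against CE was 0.0698, and without CE 1, CE 3, CEL 1, CEL 2 or CEL 3 in turn it was 0.0854 to 0.351, within 0.00354 to 0.946 over all 17. FDPS has 8 annotated pseudogenes, and how the authors' counting shared reads among such copies is not given in the sources used here.

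PMVK, phosphomevalonate kinase, had 22.5, 24.2 and 23.0 CPM in CEL cells, 22.5, 19.3 and 20.0 CPM in CE cells, 31.1, 34.0 and 30.2 CPM in LPS cells and 32.6, 29.96 and 30.9 CPM in NC cells. The CEL and CE libraries lay below all LPS and NC libraries, and LPS and NC overlapped. PMVK fell by 0.62 in CE against LPS (adjusted p = 3.17e-05) and by 0.45 in CEL against LPS (adjusted p = 0.000288). The GC offset ended both calls, with adjusted p-values of 0.143 (CE, 8.40e-09 to 0.143 over 17 alternatives) and 0.593 (CEL, 6.34e-05 to 0.593). Over the 2584 tested genes with 50 to 60% GC and a mean log2 CPM over 1, the median change was 0.091 in CE against LPS and -0.12 in CEL against LPS. PMVK (59.5%) and FDPS (56.0%) fall in that class. IDI1, isopentenyl diphosphate isomerase, which supplies the activated isoprene that FDPS extends, had 259, 285 and 291 CPM in CEL cells, 212, 175 and 203 CPM in CE cells, 174, 177 and 148 CPM in LPS cells and 189, 180.0 and 189 CPM in NC cells. All CEL libraries lay above every other library, CE 1 and CE 3 above the LPS libraries, and CE 2 within them. IDI1 rose by 0.75 in CEL against LPS (adjusted p = 1.21e-05) and by 0.50 in CEL against CE (adjusted p = 0.00117, 3.14e-05 to 0.129 over 17 alternatives). The rise of 0.24 in CE against LPS (adjusted p = 0.0279) passed in 3 of 17 alternatives. Its adjusted p was 0.0525 with the replicate block, and 0.106, 0.0992 and 0.175 without LPS 3, CE 1 and CE 3, within 0.00144 to 0.515 over all 17.

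ACAT2, the cytosolic thiolase that makes acetoacetyl-CoA, had 58.0, 62.6 and 67.5 CPM in CEL cells, 87.6, 68.9 and 74.9 CPM in CE cells, 62.8, 68.2 and 61.7 CPM in LPS cells and 87.5, 81.6 and 85.7 CPM in NC cells. It was lower in LPS than in NC cells without overlap (-0.40 ± 0.088, adjusted p = 0.00298, 0.000837 to 0.5785 over 17 alternatives), and CEL cells overlapped with LPS cells. The changes of 0.26 in CE against LPS and -0.30 in CEL against CE passed (adjusted p = 0.0270 and 0.0302), but not with the replicate block (adjusted p = 0.0509 and 0.0617). Leaving out LPS 1, LPS 3, CE 1 or CE 3 gave 0.0754 to 0.107 in CE against LPS, and leaving out CE 1, CE 3, CEL 1 or CEL 2 gave 0.0816 to 0.167 in CEL against CE. Over all 17 alternatives the ranges were 0.00293 to 0.531 and 0.00435 to 0.700. ACAT2 shares 1141 exon bases with SOD2 on the opposite strand, and SOD2 had 1162 to 1340 CPM in CEL cells, 761 to 1173 CPM in CE cells, 926 to 975 CPM in LPS cells and 46.8 to 52.7 CPM in NC cells. Its part in the values of ACAT2 was not tested. The kinase MVK had 0.171 to 2.26 CPM and the decarboxylase MVD 0.137 to 2.12 CPM over the 12 libraries, both highest in CE 2, and neither passed in any comparison.

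**Figure D3:**
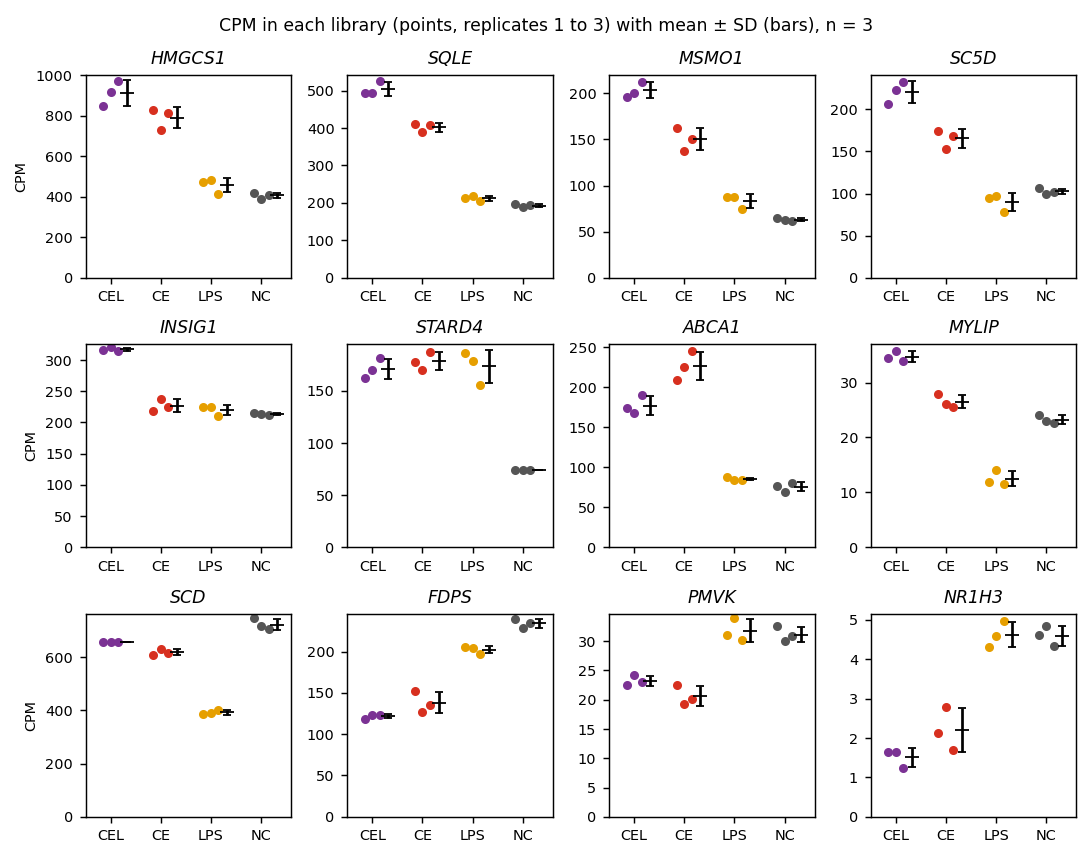
CPM of 12 genes in each library (points, replicates 1 to 3 from left to right in each group) with the mean and SD of the 3 libraries (bars). SQLE and MSMO1 are ordered CEL, CE, LPS and NC from high to low, FDPS runs the other way, STARD4 is low in NC cells alone, and SCD and MYLIP are low in LPS cells.

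From squalene to cholesterol, 7 of the 11 enzymes rose and 2 fell in CE against LPS, where 28.8% of all genes were called higher and 20.7% lower. In CEL against LPS, 6 rose and 1 fell (28.7% and 27.2% of all genes). SQLE, squalene epoxidase, an oxygen-dependent and rate-limiting step after mevalonate, had 495, 493 and 526 CPM in CEL cells, 412, 389 and 407 CPM in CE cells, 214, 217 and 206 CPM in LPS cells and 196, 188 and 193 CPM in NC cells. The 4 groups followed each other without overlap. SQLE rose 2.38-fold in CEL against LPS (1.25 ± 0.041 on the log2 scale, adjusted p = 1.07e-09), 1.90-fold in CE against LPS (adjusted p = 1.52e-08) and 1.25-fold in CEL against CE (adjusted p = 0.000189, 3.16e-06 to 0.449 over 17 alternatives). As for every call in CEL against CE, limma on TPM did not pass it. The rise of 0.14 ± 0.041 in LPS against NC (adjusted p = 0.0153) passed in 6 of 17 alternatives. Without NC 2, NC 3, LPS 1 or LPS 2 in turn its adjusted p was 0.0545 to 0.200, within 0.00551 to 0.651 over all 17.

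MSMO1 (ENSG00000052802, chr4:165327623-165343160, plus strand) is the methylsterol monooxygenase that strips methyl groups from the sterol ring. It had 196, 201 and 213 CPM in CEL cells, 162, 138 and 151 CPM in CE cells, 87.5, 87.8 and 74.1 CPM in LPS cells and 64.5, 62.6 and 61.2 CPM in NC cells. This was the same order without overlap, and its log2 change in CEL against NC was the largest rise of the 30 tested genes, 1.70 ± 0.076 (adjusted p = 3.58e-09). MSMO1 rose by 1.29 in CEL against LPS (adjusted p = 7.22e-08), 0.85 in CE against LPS (adjusted p = 2.72e-06), 0.44 in CEL against CE (adjusted p = 0.00147, 4.58e-05 to 0.316 over 17 alternatives) and 0.41 in LPS against NC (adjusted p = 0.00100). SC5D (ENSG00000109929, chr11:121292453-121308694, plus strand) introduces the double bond of the penultimate sterols. It had 206, 223 and 232 CPM in CEL cells, 175, 153 and 168 CPM in CE cells, 95.1, 97.4 and 78.1 CPM in LPS cells and 106, 99.9 and 102 CPM in NC cells. CEL lay above CE and CE above LPS and NC without overlap, and LPS lay below NC. SC5D rose by 1.29 ± 0.083 in CEL against LPS (adjusted p = 1.60e-07), by 0.88 ± 0.083 in CE against LPS (adjusted p = 4.96e-06) and by 0.41 ± 0.082 in CEL against CE (adjusted p = 0.00375, 0.000115 to 0.328 over 17 alternatives). In LPS against NC it was -0.19 ± 0.083 (adjusted p = 0.0893).

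FDFT1, CYP51A1 and EBP took the same direction with smaller changes. FDFT1, which commits farnesyl pyrophosphate to sterols, had 488 to 542 CPM in CEL cells, 426 to 528 CPM in CE cells, 283 to 292 CPM in LPS cells and 359 to 394 CPM in NC cells. It was lower in LPS than in NC cells (-0.39 ± 0.071, adjusted p = 0.000911, 0.000135 to 0.683 over 17 alternatives). FDFT1 rose by 0.84 in CEL and 0.72 in CE against LPS (adjusted p = 1.51e-06 and 7.29e-06). CYP51A1, lanosterol demethylase, had 207 to 218 CPM in CEL cells, 169 to 182 CPM in CE cells, 110.3 to 122 CPM in LPS cells and 123 to 129 CPM in NC cells. It rose by 0.86 in CEL and 0.59 in CE against LPS (adjusted p = 5.80e-08 and 1.48e-06) and by 0.26 in CEL against CE (adjusted p = 0.00243, 8.51e-05 to 0.606 over 17 alternatives). Its exons share 2844 bases with another annotated gene on the same strand, AC000120.2, so its counts are uncertain. EBP, the sterol isomerase, had 75.7 to 82.2 CPM in CEL cells, 59.3 to 72.4 CPM in CE cells, 47.6 to 51.1 CPM in LPS cells and 61.3 to 64.5 CPM in NC cells. It was lower in LPS than in NC cells (-0.37 ± 0.071, adjusted p = 0.00137, 0.0673 with no filter on low counts, 0.000453 to 0.668 over 17 alternatives). EBP rose by 0.69 in CEL against LPS (adjusted p = 6.80e-06). In CE against LPS it rose by 0.43 (adjusted p = 0.000401, 0.0704 with only the compared groups, 3.18e-05 to 0.235 over 17 alternatives). In CEL against CE it rose by 0.27 (adjusted p = 0.0182), which passed in 7 of 17 alternatives, with adjusted p-values of 0.0521, 0.0568 and 0.0641 without CE 3, CEL 2 and CEL 3, within 0.00454 to 0.544 over all 17.

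Of the other 5 enzymes of the arm, HSD17B7 and NSDHL fell and DHCR7 rose in CE against LPS, and HSD17B7 fell in CEL against LPS. HSD17B7, the 3-ketosterol reductase, had 9.05, 8.52 and 9.67 CPM in CEL cells, 8.96, 9.48 and 8.62 CPM in CE cells, 14.1, 13.2 and 13.5 CPM in LPS cells and 13.2, 12.4 and 11.0 CPM in NC cells. All CEL and CE libraries lay below all LPS and NC libraries. It fell by 0.58 in CEL against LPS (adjusted p = 0.000245, 2.10e-05 to 0.107 over 17 alternatives). In CE against LPS it fell by 0.59 (adjusted p = 0.000273, 4.35e-06 to 0.140 over 17 alternatives). Limma on TPM passed neither fall, and 2 pseudogenes are annotated for HSD17B7. NSDHL, the dehydrogenase that acts beside MSMO1 and HSD17B7, had 25.2, 27.3 and 29.4 CPM in CEL cells, 21.6, 18.0 and 20.0 CPM in CE cells, 22.0, 25.6 and 24.2 CPM in LPS cells and 30.1, 27.9 and 28.3 CPM in NC cells. The CE libraries lay below those of the other groups, with CE 1 at 21.6 CPM close under LPS 1 at 22.0 CPM. NSDHL rose by 0.46 ± 0.089 in CEL against CE (adjusted p = 0.00325, 0.000936 to 0.491 over 17 alternatives). Its falls of 0.27 in CE against LPS and 0.27 in LPS against NC (adjusted p = 0.0258 and 0.0283) passed in 8 and 5 of 17 alternatives. Without LPS 2, LPS 3, CE 2 or CE 3 the first gave 0.0566 to 0.0989. Without NC 1, NC 3, LPS 1 or LPS 3 the other gave 0.0570 to 0.123, and with the replicate block 0.0538. The ranges over 17 alternatives were 0.00240 to 0.726 and 0.00631 to 0.894.

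DHCR7, the last reductase before cholesterol, had 17.1, 15.4 and 11.1 CPM in CEL cells, 13.6, 32.7 and 16.8 CPM in CE cells, 9.23, 7.81 and 12.0 CPM in LPS cells and 9.18, 10.5 and 9.93 CPM in NC cells. CE 2 was about as high as CE 1 and CE 3 together, and CEL 3 lay below LPS 3. The rise in CE against LPS was 1.12 ± 0.30 (adjusted p = 0.00818) with all libraries and 0.66 without CE 2 (adjusted p = 0.0135), with 2.30e-08 to 0.153 over 17 alternatives. In CEL against LPS it was 0.59 ± 0.30 (adjusted p = 0.115, 0.000174 with the GC offset, 0.000174 to 0.334 over 17 alternatives). TM7SF2, a sterol reductase that shares its reaction with another enzyme, had 0.390, 0.601 and 0.107 CPM in CEL cells, 0.295, 0.626 and 0.530 CPM in CE cells, 0.344, 0.284 and 0.444 CPM in LPS cells and 1.45, 1.78 and 1.31 CPM in NC cells. The NC libraries lay above all others, and the remaining groups overlapped. It fell by 2.07 in LPS against NC (adjusted p = 0.00287) on 6 to 10 counts a library in LPS cells and 23 to 39 in NC cells. LSS, lanosterol synthase, had 0.0473 to 1.25 CPM and passed in no comparison.

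Among the genes that control SREBP, INSIG1 rose in CEL against CE, INSIG2 in both drug-treated groups against LPS, and STARD4 in LPS against NC. INSIG1 (ENSG00000186480, chr7:155297776-155310235, plus strand), the SREBP target that retains SCAP in the endoplasmic reticulum, had 316, 320.3 and 315 CPM in CEL cells, 218, 238 and 224 CPM in CE cells, 224, 225 and 210.5 CPM in LPS cells and 214, 213 and 211 CPM in NC cells. The CEL libraries lay above all others, and CE, LPS and NC libraries lay between 210.5 and 238 CPM. INSIG1 rose by 0.48 ± 0.040 in CEL against CE (adjusted p = 1.16e-05, 3.39e-30 to 0.307 over 17 alternatives) and by 0.53 ± 0.040 in CEL against LPS (adjusted p = 5.35e-07). In CE against LPS the change was 0.043 ± 0.040 (adjusted p = 0.405). INSIG2, its paralogue, had 30.1 to 33.6 CPM in CEL cells, 25.5 to 32.04 CPM in CE cells, 15.7 to 18.6 CPM in LPS cells and 15.2 to 17.1 CPM in NC cells. CEL and CE libraries lay above all LPS and NC libraries, and INSIG2 rose by 0.92 ± 0.10 in CEL and 0.73 ± 0.10 in CE against LPS (adjusted p = 1.02e-05 and 8.09e-05).

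STARD4, a soluble carrier of cholesterol between membranes, had 163, 170.0 and 182 CPM in CEL cells, 178, 169.9 and 187 CPM in CE cells, 186, 178 and 156 CPM in LPS cells and 73.7, 74.5 and 74.3 CPM in NC cells. All libraries with LPS and ATP lay at 156 CPM or above, and the NC libraries at 74.5 CPM or below. STARD4 rose 2.34-fold in LPS against NC (1.23 ± 0.068, adjusted p = 4.69e-08), while CEL and CE overlapped with LPS. The changes against LPS were -0.017 ± 0.066 in CEL (adjusted p = 0.850) and 0.041 ± 0.066 in CE (adjusted p = 0.648). With the GC offset they were -0.18 and -0.15 and passed as falls (adjusted p = 0.000491 and 0.00191; 0.000491 to 0.976 and 0.00191 to 1.00 over 17 alternatives), so no direction is given for them. SREBF1, which encodes the SREBP of fatty acid synthesis, had 0.260, 0.0501 and 0.215 CPM in CEL cells, 0.0984, 0.241 and 0.289 CPM in CE cells, 0, 0.142 and 0.222 CPM in LPS cells and 0.125, 0.228 and 0.228 CPM in NC cells, at 0 to 6 counts a library. SCAP, the escort of SREBP, had 0.0964 to 0.866 CPM. Both were too low to be tested, and a difference was not detectable at this depth.

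In the LXR group, the receptor gene NR1H3 fell while its targets ABCA1 and MYLIP rose in both drug-treated groups against LPS. NR1H3 (ENSG00000025434, chr11:47248300-47269032, plus strand), which encodes LXR alpha, had 1.64, 1.65 and 1.24 CPM in CEL cells, 2.12, 2.79 and 1.69 CPM in CE cells, 4.32, 4.59 and 4.97 CPM in LPS cells and 4.61, 4.84 and 4.34 CPM in NC cells. All CEL and CE libraries lay below all LPS and NC libraries, and LPS and NC overlapped. NR1H3 fell 3.05-fold in CEL against LPS (-1.61 ± 0.20 on the log2 scale, adjusted p = 3.04e-05). In CE against LPS it fell 2.10-fold (-1.07 ± 0.19, adjusted p = 0.000686, 9.91e-06 to 0.153 over 17 alternatives), which limma on TPM did not pass. In CEL against CE it was -0.54 ± 0.20 (adjusted p = 0.0803). It shares 189 exon bases with ACP2 on the opposite strand. NR1H2, LXR beta, had 0.150 to 2.89 CPM with its peak in CE 2 and passed in no comparison.

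ABCA1 (ENSG00000165029, chr9:104781002-104928237, minus strand) is the pump that loads cholesterol and phospholipid onto apolipoproteins. It had 173, 167 and 189.8 CPM in CEL cells, 209, 225 and 245 CPM in CE cells, 87.3, 84.4 and 84.0 CPM in LPS cells and 77.1, 69.05 and 79.7 CPM in NC cells. CE lay above CEL, and both lay above all LPS and NC libraries, without overlap. ABCA1 rose 2.65-fold in CE against LPS (1.41 ± 0.072, adjusted p = 4.45e-08) and 2.07-fold in CEL against LPS (1.05 ± 0.072, adjusted p = 2.50e-07). It fell by 0.36 in CEL against CE (adjusted p = 0.00386, 0.0572 without CE 3, 0.00244 to 0.659 over 17 alternatives). In LPS against NC the change was 0.18 ± 0.072 (adjusted p = 0.0623, 0.0424 with the replicate block, 0.0257 to 0.480 over 17 alternatives). MYLIP, a ubiquitin ligase that lowers lipoprotein uptake, had 34.5, 35.8 and 33.9 CPM in CEL cells, 28.0, 26.0 and 25.6 CPM in CE cells, 11.9, 14.1 and 11.5 CPM in LPS cells and 24.1, 22.9 and 22.5 CPM in NC cells. LPS libraries were lowest, then NC, CE and CEL, without overlap. MYLIP fell by 0.89 in LPS against NC (adjusted p = 3.79e-06). It rose by 1.47 ± 0.081 in CEL against LPS (adjusted p = 4.70e-08), by 1.08 ± 0.081 in CE against LPS (adjusted p = 7.44e-07) and by 0.39 ± 0.079 in CEL against CE (adjusted p = 0.00435, 0.000436 to 0.496 over 17 alternatives). MYLIP and ABCA1 thus took opposite signs in CEL against CE. ABCG1, the partner exporter to ABCA1, had 0.173, 0.351 and 0.107 CPM in CEL cells, 0.0492, 0.337 and 0 CPM in CE cells, 0.196, 0.142 and 0.355 CPM in LPS cells and 0.0415, 0 and 0 CPM in NC cells, at 0 to 8 counts a library, and was not tested.

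**Figure D4:**
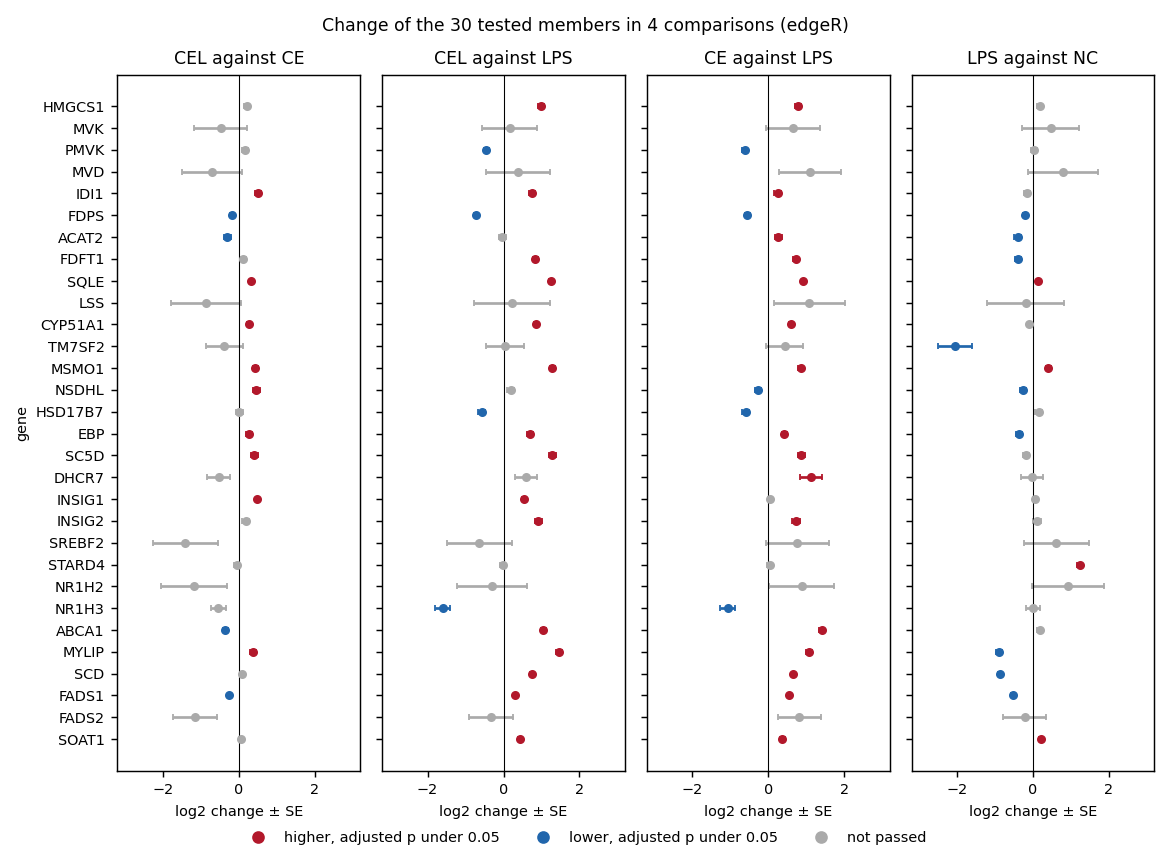
Log2 change with its standard error for the 30 tested genes in CEL against CE, CEL against LPS, CE against LPS and LPS against NC, red where higher and blue where lower at an adjusted p under 0.05. ABCA1, MYLIP, SQLE, MSMO1 and SC5D lie to the right in both comparisons of drug-treated cells with LPS cells, NR1H3 and FDPS to the left, and grey points with wide bars are genes of low counts.

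Of the fatty acid enzymes, SCD and FADS1, which put double bonds into fatty acids, were lower with LPS and ATP and higher with the drugs added. SCD, stearoyl-CoA desaturase, had 658, 658 and 656 CPM in CEL cells, 608, 631 and 615 CPM in CE cells, 385, 391 and 402 CPM in LPS cells and 746, 716 and 706 CPM in NC cells. LPS libraries were lowest, CE and CEL intermediate and NC highest, without overlap. SCD fell 1.84-fold in LPS against NC (-0.88 ± 0.038, adjusted p = 5.13e-09) and rose by 0.74 ± 0.038 in CEL and 0.65 ± 0.038 in CE against LPS (adjusted p = 2.52e-08 and 1.02e-07). Against NC it fell by 0.23 in CE cells (adjusted p = 0.000258, 1.32e-09 to 1.00 over 17 alternatives) and by 0.14 in CEL cells (adjusted p = 0.00694, 0.0603 without NC 3, 9.88e-06 to 0.736 over 17 alternatives). On the log2(TPM + 1) scale the change was 0.11 in CEL and -0.038 in CE against NC and passed in neither. SCD had 180, 179 and 121 TPM in NC cells. NC 1 and NC 2 lay above all CEL and CE libraries in TPM, and NC 3 lay below them. The part of NC 3 in this difference between the scales was not tested. FADS1, the delta-5 desaturase of long-chain fatty acids, had 294, 289.6 and 296 CPM in CEL cells, 343, 350.3 and 357 CPM in CE cells, 243, 238 and 234 CPM in LPS cells and 354, 346 and 339 CPM in NC cells. LPS was lowest, then CEL, and CE overlapped with NC. FADS1 fell by 0.54 in LPS against NC (adjusted p = 1.16e-07, 1.32e-22 to 0.264 over 17 alternatives). Against LPS it rose by 0.55 ± 0.033 in CE (adjusted p = 1.21e-07, 1.22e-20 to 0.0829 over 17 alternatives). In CEL against LPS the rise was 0.30 ± 0.033 (adjusted p = 1.09e-05, 0.233 with no filter on low counts, 1.32e-07 to 0.233 over 17 alternatives). FADS1 fell by 0.25 in CEL against CE (adjusted p = 0.000238, 0.000239 to 0.758 over 17 alternatives). FADS2, its neighbour on the opposite strand with 490 shared exon bases, had 4.38 to 26.1 CPM, the highest in CE 2, and passed in no comparison. FASN, fatty acid synthase, had 0 to 0.702 CPM and was not tested.

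SOAT1, which esterifies cholesterol for storage in droplets, had 102, 109 and 110.3 CPM in CEL cells, 109, 96.9 and 104 CPM in CE cells, 81.6, 78.5 and 78.8 CPM in LPS cells and 72.2, 65.6 and 68.5 CPM in NC cells. CEL and CE overlapped and lay above LPS, which lay above NC. SOAT1 rose by 0.43 ± 0.057 in CEL against LPS (adjusted p = 5.55e-05, 8.915e-06 to 0.1095 over 17 alternatives). In CE against LPS it rose by 0.38 ± 0.057 (adjusted p = 0.000188, 0.0615 with only the compared groups, 4.21e-05 to 0.460 over 17 alternatives). The rise in LPS against NC was 0.21 ± 0.057 (adjusted p = 0.00995, 0.103 without NC 3, 0.00743 to 0.263 over 17 alternatives). CH25H, which makes the LXR ligand 25-hydroxycholesterol, had 0.0866, 0.251 and 0.107 CPM in CEL cells, 0, 0 and 0 CPM in CE cells, 0.0491, 0.0946 and 0.133 CPM in LPS cells and 0.0831, 0 and 0 CPM in NC cells. These are 0 to 5 counts a library, with 0 in all CE libraries, where a count of 0 allows up to 3 counts a library, and it was not tested.

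Against NC cells, which carry neither stimulus nor drugs, MSMO1, SQLE, ABCA1 and STARD4 stood among the largest called rises. MSMO1 was 1.26 ± 0.076 in CE against NC (adjusted p = 5.20e-08), ABCA1 1.59 ± 0.073 (adjusted p = 4.92e-09) and STARD4 1.27 ± 0.068 (adjusted p = 1.84e-08). In CEL against NC, SQLE was 1.39 ± 0.041 (adjusted p = 1.03e-10), ABCA1 1.23 ± 0.072 (adjusted p = 3.42e-08) and STARD4 1.21 ± 0.068 (adjusted p = 2.25e-08). NR1H3 was -1.60 ± 0.20 in CEL and -1.06 ± 0.19 in CE against NC (adjusted p = 2.18e-05 and 0.000508). In limma on TPM the change in CE did not pass (adjusted p = 0.104 to 0.233). FDPS was -0.94 ± 0.059 in CEL and -0.76 ± 0.059 in CE against NC (adjusted p = 6.06e-08 and 4.43e-07). MYLIP, below NC levels in LPS cells, was 0.58 ± 0.079 in CEL against NC (adjusted p = 4.61e-05) and 0.19 ± 0.079 in CE against NC, where it did not pass (adjusted p = 0.0504, 0.0306 without CE 2, 0.0306 to 0.767 over 17 alternatives).

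Other genes of cholesterol handling were read from the same fit, and in each list and comparison up to 2 called genes with the largest changes and a mean log2 CPM of at least 3 are named. Of 14 tested genes of uptake, lysosomal export and transport, 8 rose and 0 fell in CEL against LPS, where 28.7% of all genes were called higher and 27.2% lower, and 8 rose and 1 fell in CE against LPS, where 28.8% of all genes were called higher and 20.7% lower. Their median changes were 0.63 and 0.52, and those of all genes -0.032 and 0.081. NPC1, which exports cholesterol from the lysosome, averaged 60.7 CPM in CEL cells and 24.5 CPM in LPS cells (1.31 ± 0.055, adjusted p = 6.12e-09). In CE against LPS it rose by 0.88 ± 0.055 (adjusted p = 1.77e-07) and in CEL against CE by 0.43 ± 0.054 (adjusted p = 0.000220). NPC2, its partner in the lysosome, rose by 0.74 ± 0.079 in CE against LPS (adjusted p = 1.24e-05), and OSBP, an exchanger of cholesterol and phosphoinositide, by 0.95 ± 0.068 in CEL against LPS (adjusted p = 3.81e-07). LIPA, the lysosomal acid lipase, rose by 0.44 ± 0.074 in CEL against CE (adjusted p = 0.00153). In LPS against NC, 6 rose and 3 fell (22.4% and 23.5% of all genes), and the largest were falls of VLDLR (-1.27 ± 0.084, adjusted p = 2.36e-07) and GRAMD1B (-1.21 ± 0.29, adjusted p = 0.00544).

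Of 11 genes that mature or degrade SREBP and its partners, 3 rose and 4 fell in CEL against LPS (28.7% and 27.2% of all genes), and 1 rose and 4 fell in CE against LPS (28.8% and 20.7% of all genes), with median changes of -0.052 and 0.0010. In CEL against LPS these shares are near the background. ERLIN2, a membrane protein of endoplasmic reticulum degradation, fell by 1.11 in CEL against LPS (adjusted p = 9.75e-08), and its relative ERLIN1 by 0.62 in CE against LPS (adjusted p = 1.30e-05) and by 0.58 in LPS against NC (adjusted p = 2.60e-05). Of 10 genes on the branches that leave farnesyl pyrophosphate, 5 rose and 5 fell in CEL against LPS (28.7% and 27.2% of all genes), and 4 rose and 4 fell in CE against LPS (28.8% and 20.7% of all genes), with median changes of 0.048 and 0.078. The subunits of the enzyme that makes the ubiquinone tail parted: PDSS1 was -1.39 ± 0.11 in CEL and -1.31 ± 0.11 in CE against LPS, and PDSS2 was 1.09 ± 0.079 and 0.96 ± 0.079 (adjusted p = 9.86e-07, 2.25e-06, 3.96e-07 and 1.56e-06).

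Of 9 tested other partners and targets of LXR, 3 rose and 3 fell in CEL against LPS (28.7% and 27.2% of all genes), and 3 rose and 2 fell in CE against LPS (28.8% and 20.7% of all genes), close to the background, with median changes of -0.31 and 0.20. SMPDL3A, a phosphodiesterase known as an LXR target in human macrophages, averaged 22.2 CPM in LPS cells and 5.55 CPM in NC cells (2.00 ± 0.12, adjusted p = 8.51e-08). It then fell by 0.97 in CEL and 0.92 in CE against LPS (adjusted p = 1.95e-05 and 3.85e-05), the sign opposite to ABCA1 and MYLIP. LPCAT3, an LXR target that remodels phospholipids, was -0.74 ± 0.078 in LPS against NC and -0.38 ± 0.079 in CEL against CE (adjusted p = 1.40e-05 and 0.00494). The coregulators NCOA1 and NCOR1 rose, NCOA1 by 0.66 ± 0.076 in CEL against LPS and NCOR1 by 0.45 ± 0.047 in CE against LPS (adjusted p = 1.64e-05 and 1.08e-05).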

How the data were processed

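Tables of 78932 genes in 3 units were deposited by the authors, and per the labels' protocols the RNA was captured on oligo-dT beads and fragmented. Per the submitters' processing notes the build was hg38. The aligner, counter, strand setting and annotation are not stated there or in the labels. The deposited count table holds estimated counts (29.3% of nonzero values were not whole within 0.005), which were rounded, and the deposited TPM table served for levels between genes. Deposited columns for CE were matched as the remaining drug-treated group without luspatercept, and 0 columns were unused.

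Genes passing filterByExpr (14065) were fitted in edgeR 4.0.16 (R 4.3.3) with TMM factors, all 12 libraries and group as the only term, by quasi-likelihood F-tests, two-sided, adjusted by Benjamini and Hochberg over all tested genes at 0.05. The common dispersion was 0.0405. Standard errors are the size of the log2 change divided by the square root of F. A prior count of 2 entered only the log2 CPM used for the GC offset, the GC classes and the pairing, not the log2 changes of the main fit. Members and lists were chosen with earlier results of these data known, so no list test is given. Members named with values in every library were SREBF1, SREBF2, INSIG1, HMGCS1, SQLE, NR1H3, ABCA1, ABCG1 and CH25H, and those with the largest called changes, 5 in each direction and comparison at most.

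The 17 alternatives were relative log expression, upper quartile and unadjusted library sizes, no filter on low counts, the replicate block, an offset for GC content added after seeing the data, only the compared groups, DESeq2 1.42.0, limma 3.58.1 on log2(TPM + 1) and log2(TPM + 0.1) and without a filter, and each library of the 2 groups left out in turn. The labels give each library a batch number equal to its replicate number, so the number stands for the pairing. Over 7460 genes with a mean log2 CPM above 3, deviations of same-numbered libraries correlated above 0.1 in 6 of 18 pairs (-0.86 to 0.73, median -0.186), and 1 library correlated best with its own number. TPM per CPM was lowest in LPS 1 (0.793) and NC 3 (0.705). No pair of libraries in a group differed by less than the sampling noise. Against their own groups, the chi-square per degree of freedom was 175 to 197 for NC 3 and 125 to 133 for LPS 1. It was 47.9 to 70.6 for CE 2 and 3.75 to 13.2 for the other pairs. Ribosomal RNA made up 3.03% of the counts in NC 3, 2.45% in LPS 1 and 1.075 to 1.94% in the other libraries. Comparisons with NC or LPS cells include these libraries. One gene of the related lists is not reported here.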

Additional observations from a re-analysis of the deposited data

How the results depend on the processing

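Of the changes of the 30 tested genes over 6 comparisons and 17 alternatives, 2593 kept their direction and side of the threshold, 159 turned without passing before or after, 241 no longer passed, 57 newly passed and 10 turned with a call on either side. Calls from counts that also passed in limma on TPM, with and without a filter, and in all other alternatives numbered 3 of 13 in LPS against NC, 9 of 21 in CE against LPS, 14 of 19 in CEL against LPS, 0 of 13 in CEL against CE, 12 of 18 in CE against NC and 16 of 22 in CEL against NC. On log2(TPM + 1), log2(TPM + 0.1) and log2(TPM + 1) without a filter, limma called 2, 2 and 1 higher and 3, 3 and 2 lower in LPS against NC. In that order it called 2, 2 and 0 lower (and 9 higher without a filter) in CE against LPS, 2, 2 and 2 lower in CEL against LPS, 2, 2 and 2 lower in CE against NC and 3, 3 and 3 lower in CEL against NC. In CEL against CE it called 0, 0 and 0 higher and 0, 0 and 0 lower, with 7, 6 and 8 members at an unadjusted p under 0.05. The 0 in CE against LPS stood beside 17 members at an unadjusted p under 0.05. Over all genes limma called 2963, 2951 and 2346 in LPS against NC and 3586, 3545 and 2528 in CE against LPS. It called 4984, 4978 and 4212 in CEL against LPS and 266, 225 and 179 in CEL against CE. In CE against NC it called 6235, 6245 and 5429, and in CEL against NC 7173, 7227 and 6934. Relative log expression and upper quartile factors gave 2 and 2 higher in LPS against NC, beside 2998 and 2604 of all 14065 genes. In CEL against CE they gave 2 and 2 lower, beside 1485 and 1774 of all genes. No filter on low counts gave 4 higher in CEL against CE, beside 463 of 38635 genes. The replicate block, the GC offset and DESeq2 gave 2, 2 and 2 lower there, beside 1768, 2005 and 1528 of all genes. A fit of only those 2 groups gave 0 lower (11 at an unadjusted p under 0.05). Over all genes that fit called 708 lower and 1231 in either direction. Upper quartile factors gave 11 lower in CE against NC, where 5646 of all 14065 genes were called lower.

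Leaving out 1 library gave 2 to 5 higher and 7 to 9 lower in LPS against NC (5376 to 5747 over all genes), with 2 higher without NC 3. It gave 14 to 16 higher and 4 to 5 lower in CE against LPS (6115 to 8204), 15 to 15 and 4 to 4 in CEL against LPS (7197 to 7353), and 8 to 11 and 1 to 4 in CEL against CE (2366 to 4146), with 2 lower without CE 1, CEL 1 or CEL 2 and 1 without CE 3. It gave 11 to 14 and 7 to 8 in CE against NC (8168 to 9428) and 14 to 14 and 7 to 8 in CEL against NC (8771 to 8997). The replicate block changed no call of a member other than those given for ACAT2, FDPS, IDI1, NSDHL and ABCA1. Changes that turned with a call on either side were INSIG1 with upper quartile factors (-0.13 in CE against LPS and -0.20 in CE against NC), EBP (-0.22) and FADS1 (-0.27, and -0.14 with library size alone) in CE against NC, SREBF2 without CE 2 (-1.35, with up to 1.29 when another library was left out) and STARD4 with the GC offset (-0.15) in CE against LPS, and SCD in CEL against NC on the 3 TPM scales (0.11, 0.12 and 0.11). Upper quartile factors moved the median of all genes by -0.179 in CE against LPS, -0.288 in CE against NC, -0.135 in CEL against LPS, -0.245 in CEL against NC and -0.11 in LPS against NC. Library size alone moved it by -0.152, -0.157, -0.112 and -0.117 in the first 4 of these. Calls that appeared when 1 library was left out were HMGCS1 in LPS against NC without LPS 3 (adjusted p = 0.0212, 0.0212 to 0.545 over 17 alternatives) and, in CEL against CE, PMVK and FDFT1 without CE 1 (adjusted p = 0.0375 and 0.0358, 0.0375 to 0.804 and 0.0358 to 0.962 over 17 alternatives). In CE against NC, they were MVD, ACAT2, INSIG1 and SREBF2 without CE 1, IDI1 without CE 2, and MVD and NR1H2 without CE 3. The cause of these shifts was not tested. Depth limits SREBF1, SCAP, ABCG1, FASN and CH25H, which could not be tested.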

Other observations

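Of 15 tested genes of fatty acid synthesis and supply other than the desaturases, 8 rose and 2 fell in CEL against LPS, where 28.7% of all genes were called higher and 27.2% lower. In CE against LPS 9 rose and 1 fell (28.8% and 20.7% of all genes), and in LPS against NC 5 rose and 6 fell (22.4% and 23.5% of all genes). ME1, the malic enzyme that supplies NADPH, averaged 206 CPM in CEL cells and 61.5 CPM in LPS cells (1.75 ± 0.072, edgeR's quasi-likelihood test, adjusted p = 5.46e-09). It was 0.56 ± 0.070 in CEL against CE, 1.18 ± 0.071 in CE against LPS and 1.51 ± 0.074 in LPS against NC (adjusted p = 0.000207, 1.45e-07 and 1.57e-08). ACSS2, which makes acetyl-CoA from acetate, was 0.76 ± 0.063 in CEL and 0.93 ± 0.063 in CE against LPS (adjusted p = 1.18e-06 and 3.72e-07). ACSL1, which activates long-chain fatty acids, rose in LPS against NC, with 195 CPM in LPS cells and 45.1 CPM in NC cells (2.11 ± 0.054, adjusted p = 5.10e-11). ELOVL1, an elongase, was 0.35 ± 0.048 in CEL against CE (adjusted p = 0.000388).

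Of 11 tested genes of lipid droplets and triglyceride, 3 rose and 1 fell in CEL against LPS (28.7% and 27.2% of all genes), 3 rose and 2 fell in CE against LPS (28.8% and 20.7%), and 4 rose and 1 fell in LPS against NC (22.4% and 23.5%). The shares of rises with the drugs are near the background. LPIN1, a phosphatidate phosphatase, averaged 114 CPM in CEL cells and 41.7 CPM in LPS cells (1.46 ± 0.057, adjusted p = 3.63e-09), and was 1.34 ± 0.057 in CE against LPS and 0.82 ± 0.057 in LPS against NC (adjusted p = 1.18e-08 and 4.01e-07). FABP5, a fatty acid carrier, was -1.02 ± 0.064 in CEL and -0.98 ± 0.063 in CE against LPS (adjusted p = 1.19e-07 and 2.58e-07). PLIN2, a droplet coat protein, was 0.34 ± 0.070 in LPS against NC (adjusted p = 0.00218), and GPAM, which starts glycerolipid synthesis, 0.36 ± 0.11 in CEL against CE (adjusted p = 0.0399).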
